A study of Mus musculus with 8 samples.

Results

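Long intergenic non-coding RNA genes (lincRNA genes) that were well expressed in the medial prefrontal cortex of mice were compared after retrieval and without retrieval of a place preference memory associated with METH (methamphetamine). The set held the autosomal genes with the biotype lincRNA that had at least 100 reads in each of the 8 RNA-seq libraries. It held 83 genes, out of 5559 lincRNA genes and 54532 genes in the deposited table. Of 4915 autosomal lincRNA genes, 2689 had a read in any library, and 10793 autosomal protein-coding genes met the same minimum. The genes were selected on their measured counts, so their abundance is described here and not tested.

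Each group, retrieval and non-retrieval, had 4 libraries. All came from adult male C57BL/6 mice, each library from a pool of 2 to 3 animals, with tissue taken 1 h after the test for conditioned place preference (CPP), in which an animal chooses between a drug-paired and another compartment. The labels name no further allele or agent, leave the handling of the non-retrieval mice undescribed, and do not say whether a replicate number marks a shared day. The spread between libraries is a spread between pools of mice.

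LincRNAs are transcribed, spliced and often polyadenylated like messenger RNAs but are not known to code for protein. Some, such as Malat1, Neat1 and Miat, stay in the nucleus and take part in nuclear bodies or splicing control. Others are the primary transcripts from which microRNAs or small nucleolar RNAs are cut, come from imprinted clusters, or start back to back with a protein-coding gene. Counts over a gene do not separate these roles.

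MicroRNAs of the called host A230057D06Rik are shown first because they say what that transcript can give rise to, with those of the miR-9 hosts and of C78859 for comparison. RefSeq microRNAs (GRCm38.p6) lay within 10 of the 83 genes, in Dubr only on the opposite strand. The RefSeq list used gave no miR-124 entry within these genes, so miR-124 is not in this count. By the genes of the deposited table, 12 of the 83 overlapped a microRNA gene on the same strand. Seeds, bases 2 to 8, are in capitals.
miR-9-5p, within Gm3764, C130071C03Rik and Mir9-3hg: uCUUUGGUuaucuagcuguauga
miR-344d-3p, within A230057D06Rik: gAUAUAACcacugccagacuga
miR-344e-3p, within A230057D06Rik: gAUAUAACcaaagccugacuau
miR-344h-3p, within A230057D06Rik: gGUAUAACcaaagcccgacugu
miR-344b-3p, within A230057D06Rik: cAUUUAGCcaaagccugacugu
miR-344c-3p, within A230057D06Rik: uGAUCUAGucaaagccugacagu
miR-344-3p, within A230057D06Rik: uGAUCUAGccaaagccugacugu
miR-138-5p, within C78859: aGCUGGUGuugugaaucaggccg

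The miR-9 sequence is the same for all 3 hosts. Within A230057D06Rik, miR-344d-3p and miR-344e-3p share the seed AUAUAAC, and miR-344c-3p and miR-344-3p share GAUCUAG. The microRNAs lay in introns of A230057D06Rik, Gm3764 and Mir9-3hg and in exons of C130071C03Rik and C78859. Another family, miR-124, an abundant microRNA of neurons, is carried by Mir124a-1hg and Mir124-2hg. Gm27032 is set beside them, but its gene model shares only 3 bases with the miR-124 gene Mir124a-3 and does not contain it. The libraries measured the long host transcripts and not the mature microRNAs.

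Library totals ran from 25013503 to 29547978 reads. The 83 genes held 0.439% to 0.535% of these reads and 86.9% to 88.5% of all autosomal lincRNA reads. Genes that mark mature oligodendrocytes and myelin were higher in retrieval (7 of 12 called higher, none lower, where 3.67% of all genes were called higher). Their mean log2 CPM (reads scaled to a common library size) was 6.72 to 6.92 in the non-retrieval libraries and 6.95 to 7.41 in the retrieval libraries. The ranges of the groups did not overlap, so a fit with this level as a covariate cannot separate it from retrieval. Striatal neuron markers had a mean log2 CPM of 4.95 in retrieval library 2 and 3.92 to 4.17 in the other 7. Cortical excitatory neuron markers stood at 8.28 to 8.47 throughout. Among the lists other than myelin, only the striatal and GABAergic interneuron lists held called genes, 1 lower in each. Most striatal markers went the other way, with 9 of 12 log2 fold changes above 0 and a median of 0.22. Of 7 GABAergic interneuron and of 7 cortical excitatory neuron markers, 3 each were above 0. All 6 astrocyte markers and the 2 tested choroid plexus and ependyma markers had log2 fold changes above 0. Of 6 microglia and of 6 endothelial and mural markers, 3 each were above 0. In such bulk tissue, fewer cells of a type and less RNA per cell cannot be told apart.

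Expression was concentrated in a few genes. The 4 most counted genes held 65.6% to 68.4% of the reads of the set, and the median gene had a mean of 291 reads against 15 genes at or above 1000. Levels per length are given as RPKM, which is CPM divided by the deposited gene length in kilobases. 2900097C17Rik on chromosome 2 led at 327 RPKM, followed by 6330403K07Rik at 150 and 1700020I14Rik at 64.6 RPKM. Meg3, the maternally expressed RNA of the imprinted Dlk1-Dio3 cluster, had 51.1 RPKM, and Malat1, the nuclear speckle RNA, 37.1 RPKM. Tmem250-ps had 28.2, 3300002P13Rik 20.3, B230209E15Rik 19.1, Miat 14.9 and Dbpht2 12.9 RPKM. The next 5, Gm10419, B230217O12Rik, AC125351.1, Gm20300 and Gm1976, lay between 10.4 and 12.3 RPKM, and the lowest of the set was A230057D06Rik at 0.477 RPKM. The ranges over libraries of 2900097C17Rik (288.8 to 386 RPKM) and 6330403K07Rik (138 to 167 RPKM) did not overlap each other or those of lower genes. Those of 1700020I14Rik (53.7 to 74.7 RPKM) and Meg3 (38.0 to 60.4 RPKM) did, as did those of Meg3 and Malat1 (18.4 to 54.1 RPKM).

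**Figure D1:**
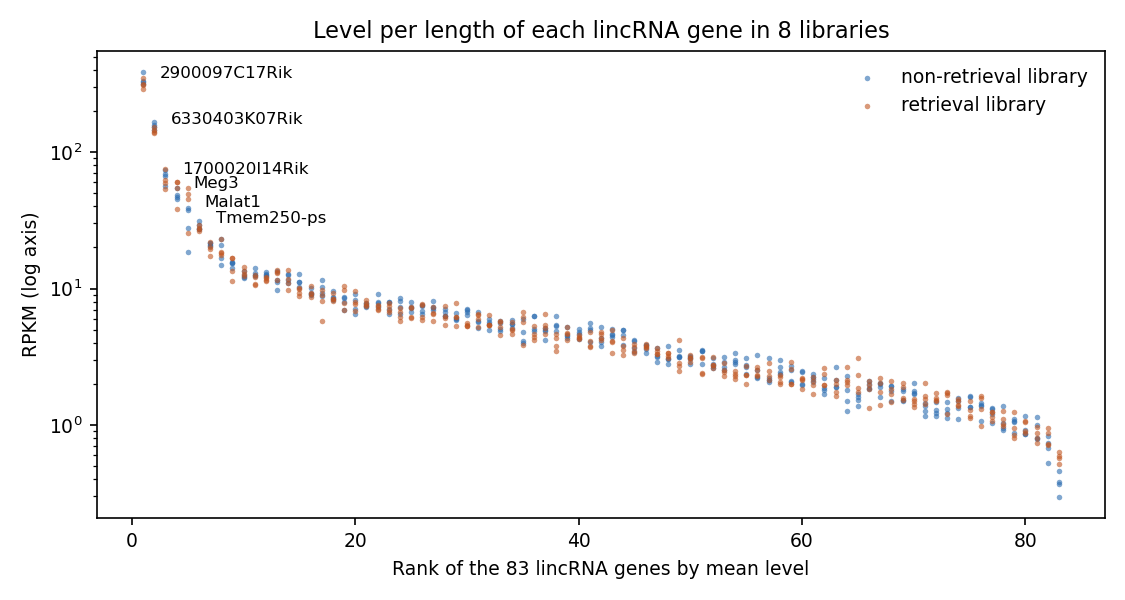
RPKM (log axis) of each of the 83 lincRNA genes in each of 8 libraries, ordered by mean level, with non-retrieval libraries in blue and retrieval libraries in orange. Level falls from 327 RPKM for 2900097C17Rik to 0.477 for A230057D06Rik, and Malat1 shows a wide spread between libraries.

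The 3 genes just inside the count minimum were Gm17354, whose lowest library had 100 reads, A230057D06Rik with 101 and 2010320M18Rik with 104. Just outside were Gm10076 with 99, Gm21781 with 96 and Gm48604 with 94 reads in the lowest library. The 83 genes lay on 18 chromosomes. Their median length was 3556 bases against 4815 for protein-coding genes meeting the same minimum, and their median GC content 47.3% against 49.95%. By exon models of GENCODE M21, 18 consisted of a single exon block, among them Malat1 and 2900097C17Rik. A block merges overlapping or adjoining exons of all transcripts, so a spliced gene can also have a single block. The body of 45 genes overlapped no other gene and that of 7 overlapped a protein-coding gene. The library kit does not mark strand, so reads of overlapping genes on opposite strands cannot be told apart.

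Retrieval and non-retrieval were compared with edgeR's quasi-likelihood test, and p-values were adjusted by Benjamini-Hochberg across the 16745 genes that passed the filter on low counts. All 83 genes were tested, and a gene was called at an adjusted p under 0.05. In retrieval 1 gene was higher, A230057D06Rik, and 2 were lower, Mir124-2hg and Gm43672. These 3 of 83 stand against 4.57% of all genes tested, 5.82% of protein-coding genes with the same minimum and 2.01% of all 548 autosomal lincRNA genes tested. Over all genes, 3.67% were called higher and 0.902% lower. The share called was thus near the background. At an unadjusted p under 0.05 there were 17 of the 83 genes, against 18.5% of all genes.

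A230057D06Rik (ENSMUSG00000109394) lies on chromosome 7, positions 61704519 to 61928690 of GRCm38, on the minus strand, and is the transcript over the miR-344 cluster. It had 5.25, 4.34, 4.17 and 3.40 CPM in non-retrieval libraries 1 to 4 and 6.70, 6.50, 7.16 and 5.87 CPM in retrieval libraries 1 to 4. All 4 retrieval libraries stood above all 4 non-retrieval libraries. The log2 fold change was 0.61 (SE 0.14, edgeR adjusted p = 0.0175), with raw counts of 101 to 199 reads. With the myelin marker level of each library as a covariate it was 0.73 (SE 0.21), no longer called (edgeR adjusted p = 0.140). The call was also lost without non-retrieval library 3 or 4 or without retrieval library 3 (adjusted p = 0.0603, 0.0676 and 0.0574).

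The RefSeq promoter of A230057D06Rik is shown because it belongs to the one gene called higher. It covers chr7:61927525-61927824 of GRCm38.p6 on the minus strand, from 250 bases before to 50 after the RefSeq start, which lies inside the longer deposited gene model. Its GC content was 30.7%.
A230057D06Rik promoter: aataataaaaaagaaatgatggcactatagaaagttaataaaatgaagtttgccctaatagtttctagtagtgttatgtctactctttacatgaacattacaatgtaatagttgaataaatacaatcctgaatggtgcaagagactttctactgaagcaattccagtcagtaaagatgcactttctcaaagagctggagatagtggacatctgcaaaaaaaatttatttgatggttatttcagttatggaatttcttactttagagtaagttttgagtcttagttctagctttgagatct
None of the motifs searched on both strands was found in it. These were AP-1 (TGANTCA), the cyclic AMP response element (TGACGTCA), EGR (GCGNGGGCG), NR4A (AAGGTCA), the SRF CArG box and the glucocorticoid response element.

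Mir124-2hg (ENSMUSG00000100252), a miR-124 host, lies on chromosome 3, positions 17789921 to 17808970, on the plus strand. It had 38.1, 29.2, 31.9 and 32.4 CPM in the non-retrieval libraries and 26.3, 20.8, 27.9 and 23.0 CPM in the retrieval libraries. Every retrieval library was below every non-retrieval library. The log2 fold change was -0.43 (SE 0.10, edgeR adjusted p = 0.0223). With the myelin marker level as a covariate it was -0.09 (SE 0.12, edgeR adjusted p = 0.807), and the part of the myelin markers in the result was not tested. The call was lost without non-retrieval library 1, 3 or 4 or without retrieval library 2 or 4, at log2 fold changes of -0.35 to -0.44 and adjusted p-values of 0.0525 to 0.0733.

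Gm43672 (ENSMUSG00000106019), a gene of 1 exon block, lies on chromosome 3, positions 22074412 to 22076142, on the minus strand. Its start is 510 bases from that of Tbl1xr1, a corepressor subunit transcribed in the other direction. It had 11.1, 11.99, 11.6 and 12.2 CPM in the non-retrieval libraries and 9.73, 9.16, 9.19 and 9.34 CPM in the retrieval libraries. The groups did not overlap, and the log2 fold change was -0.33 (SE 0.09, edgeR adjusted p = 0.0383). Tbl1xr1 itself had a log2 fold change of -0.03 (SE 0.09). With the myelin marker level as a covariate Gm43672 had -0.31 (SE 0.14, edgeR adjusted p = 0.396). Of the 8 fits that each left out a library, only the one without retrieval library 1 called Gm43672, and the others gave -0.31 to -0.35 with adjusted p-values of 0.0578 to 0.124.

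**Figure D2:**
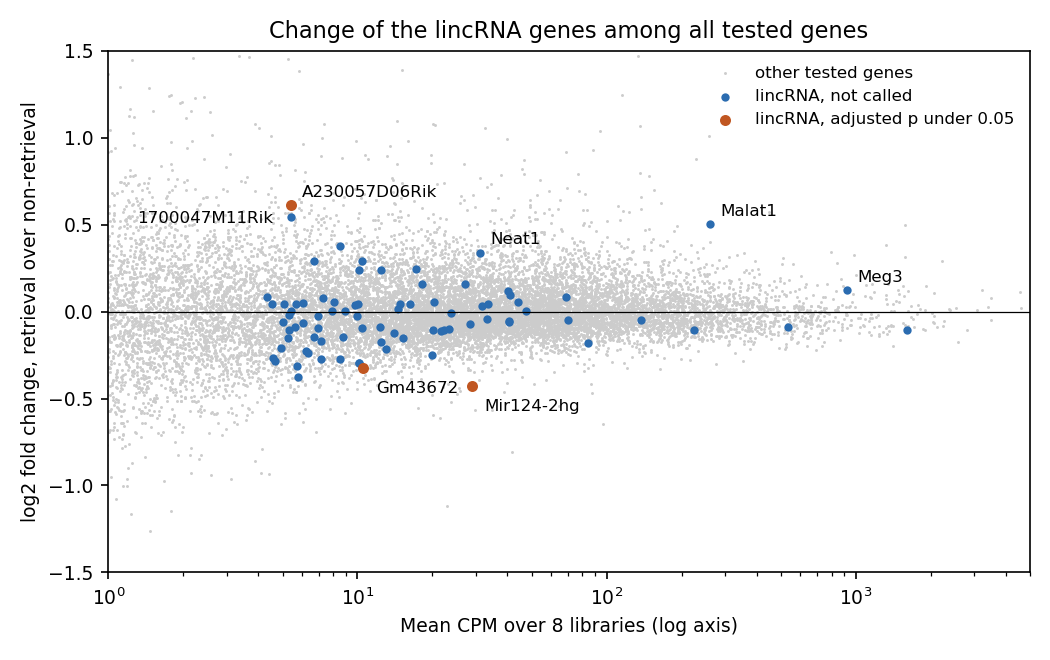
log2 fold change (retrieval over non-retrieval) against mean CPM (log axis) for all tested genes in grey, lincRNA genes of the set in blue and the 3 called genes in orange. Most of the set lies close to 0, with Malat1 at 0.50 not called; genes beyond the axis limits are not drawn.

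Over the set the values were small. Log2 fold changes ran from -0.43 to 0.61, and 58 of 83 were within 0.2 of 0. Their median was -0.05, against -0.01 over all genes tested and -0.09 over all autosomal lincRNA genes tested, with 36 above and 47 below 0. The retrieval libraries lay wholly above the non-retrieval libraries for 3 genes and wholly below for 7, where 6.59% and 4.53% of all genes did. Besides the 3 called genes, those above were 1700047M11Rik and Dubr, and those below Gm17322, Gm1976, 9330104G04Rik, Gm26809 and B230217O12Rik.

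**Figure D3:**
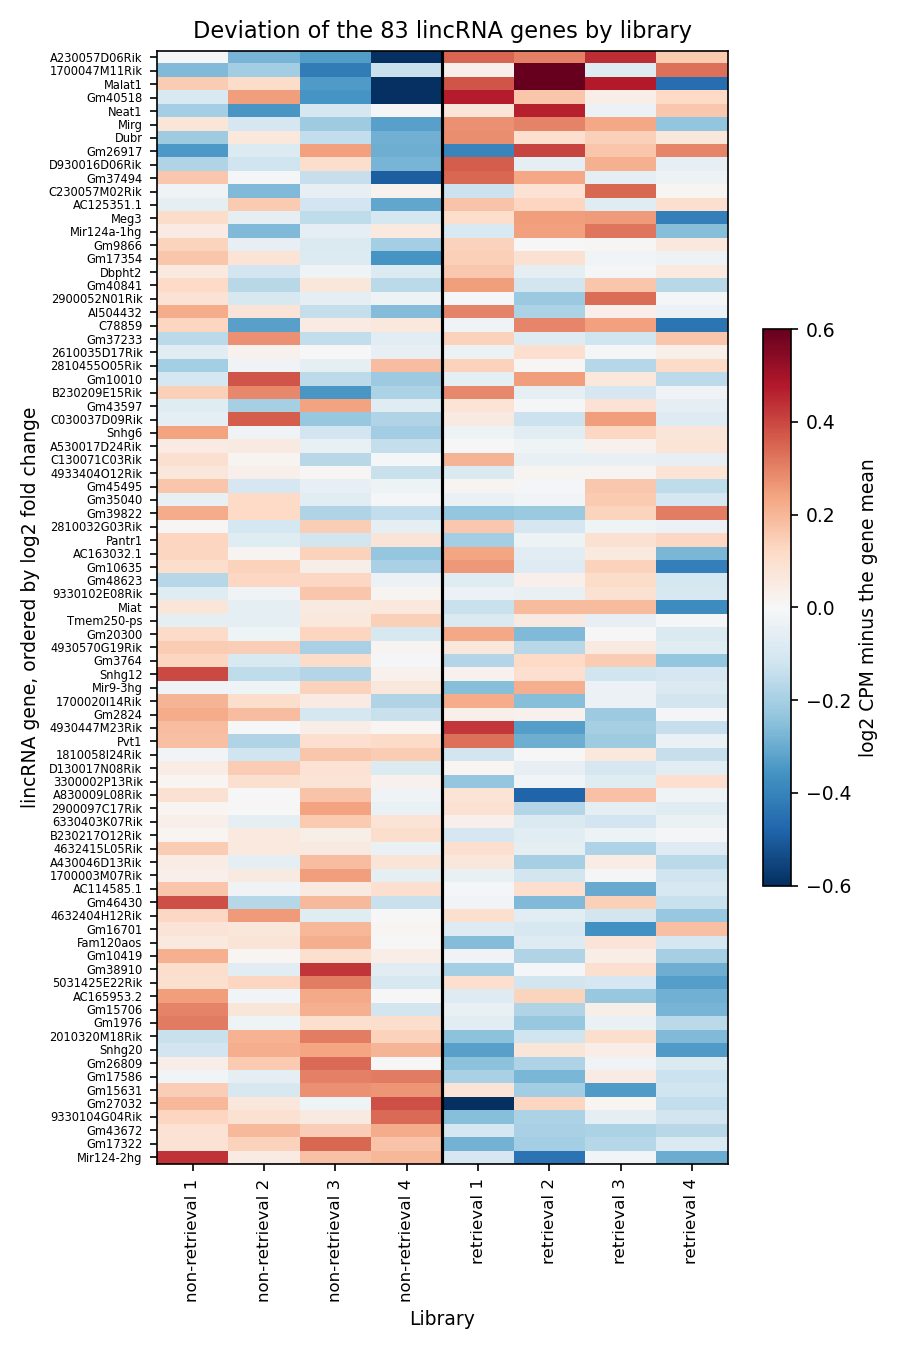
log2 CPM of each of the 83 lincRNA genes in each library minus the mean of that gene (color), with genes ordered by log2 fold change and non-retrieval libraries left of the line. Columns of 1 group differ among themselves for many genes, such as Malat1, Meg3 and Miat in retrieval library 4.

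Several genes had small p-values without passing the test. 1700047M11Rik had 4.37, 4.55, 3.92 and 4.78 CPM in the non-retrieval libraries and 5.35, 8.77, 4.98 and 6.59 CPM in the retrieval libraries. Its log2 fold change was 0.55 (SE 0.16, edgeR adjusted p = 0.0684), and retrieval library 2 stood highest. Without that library it was 0.36 (adjusted p = 0.211), and with the myelin marker level as a covariate 0.01 (SE 0.21). It was called by DESeq2 (adjusted p = 0.0449), by limma-voom (0.0288) and without a filter on low counts (0.00484). Of the edgeR fits that each left out a library, only those without retrieval library 1 (adjusted p = 0.0245) or 3 (0.0431) called it. Gm17322 had 6.09, 6.32, 7.27 and 6.46 CPM against 4.71, 4.97, 5.09 and 5.40 CPM, with a log2 fold change of -0.37 (SE 0.11, edgeR adjusted p = 0.0730). Dubr, an RNA known from muscle differentiation, had 0.29, and Gm40518 0.38. Below 0 were Gm1976 at -0.25, 9330104G04Rik at -0.31 and Gm15631 at -0.30 on the log2 scale.

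Role lists are small, and counts of calls in them stand against 3.67% of all genes called higher and 0.902% called lower. Of the 5 listed nuclear-retained RNAs, 4 were tested, 1 of them was called higher and none lower. Malat1 (chromosome 19) had 273, 264, 194 and 128 CPM in the non-retrieval libraries and 319, 378, 341 and 179 CPM in the retrieval libraries. The highest library was 2.94 times the lowest, library 4 was lowest in both groups, and the groups overlapped. The log2 fold change was 0.50 (SE 0.21, edgeR adjusted p = 0.205). Without a filter on low counts edgeR called it (adjusted p = 1.25e-10) at the same log2 fold change of 0.50, and DESeq2 did not (adjusted p = 0.408). It was also called without retrieval library 4, at 0.69 (adjusted p = 0.0449).

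Neat1, the scaffold of paraspeckles and a neighbour of Malat1 on chromosome 19, had 26.5, 24.0, 28.5 and 30.3 CPM in the non-retrieval libraries. In the retrieval libraries it had 32.1, 42.2, 29.8 and 34.2 CPM, with retrieval library 2 highest and an overlap at retrieval library 3. The log2 fold change was 0.34 (SE 0.10, edgeR adjusted p = 0.0731), and 0.23 without retrieval library 2 (adjusted p = 0.198). With the myelin marker level as a covariate it was 0.10 (SE 0.15). DESeq2 (adjusted p = 0.0362), limma-voom (0.0326) and edgeR without a filter on low counts (0.00409) called Neat1. Of the edgeR fits that each left out a library, only the one without retrieval library 1 called it (adjusted p = 0.0318). Miat, a nuclear RNA of neurons, had 144, 132, 142 and 143 CPM against 125, 157, 156 and 106 CPM, a log2 fold change of -0.05 (SE 0.10). The called RNA of this list was Kcnq1ot1, the antisense RNA that silences its imprinted domain in cis. It is annotated as antisense and so outside the set, with a log2 fold change of 0.80 (SE 0.18, edgeR adjusted p = 0.0170) from 4.495 ± 1.31 to 7.81 ± 1.24 CPM (SD, n = 4 each).

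Of 9 listed imprinted RNAs 7 were tested, with Kcnq1ot1 again the only one called. Meg3 had 986, 880, 822 and 851 CPM in the non-retrieval libraries and 985, 1088, 1093 and 688 CPM in the retrieval libraries, so that retrieval held both the highest values and the lowest. Its log2 fold change was 0.12 (SE 0.11). Mirg, the microRNA-rich RNA further along the same cluster, had 10.8, 9.61, 8.91 and 8.24 CPM against 12.5, 12.7, 12.1 and 8.76 CPM, a log2 fold change of 0.29 (SE 0.12, edgeR adjusted p = 0.207). Rian, which lies between them and is annotated as a processed transcript, had -0.13 (SE 0.07). In retrieval library 4 Meg3 and Mirg were both lowest of their group.

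Small nucleolar RNA hosts carry small nucleolar RNAs in their introns, many but not all of them guides for ribosomal RNA modification. Of 22 listed hosts 17 were tested and none was called. Snhg6, Snhg12 and Snhg20 belonged to the set, with log2 fold changes of 0.04 (SE 0.13), -0.06 (SE 0.13) and -0.27 (SE 0.12, edgeR adjusted p = 0.247). Of 9 listed RNAs of neural development and cell identity 8 were tested and none was called. Pantr1, the RNA next to the transcription factor gene Pou3f3, had 23.8 ± 1.89 CPM without retrieval and 23.6 ± 2.36 CPM after it (SD, n = 4 each).

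Of 12 listed microRNA hosts 9 were tested, with 1 called higher and 1 lower, beside the same shares over all genes (3.67% and 0.902%). The lower one was Mir124-2hg. The higher one was 1700016P03Rik, the host of miR-212 and miR-132, which is annotated as a processed transcript and so outside the set. It had 2.29, 2.37, 2.60 and 3.47 CPM in the non-retrieval libraries and 6.60, 8.94, 8.46 and 6.92 CPM in the retrieval libraries. Its log2 fold change was 1.52 (SE 0.16, edgeR adjusted p = 1.34e-05).

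Of the miR-124 hosts Mir124a-1hg and Mir124-2hg, and Gm27032, which shares only 3 bases with Mir124a-3, only Mir124-2hg was called. Mir124a-1hg on chromosome 14 had 41.2, 33.2, 38.2 and 41.5 CPM in the non-retrieval libraries and 37.4, 47.2, 49.7 and 33.3 CPM in the retrieval libraries (log2 fold change 0.12, SE 0.11). Gm27032 on chromosome 2 had a log2 fold change of -0.30 (SE 0.14, edgeR adjusted p = 0.259), and its lowest value was in retrieval library 1. The log2 ratio of Mir124a-1hg to Mir124-2hg was 0.23 ± 0.10 in non-retrieval and 0.77 ± 0.32 in retrieval (SD, n = 4 each). That of Mir124a-1hg to Gm27032 was 1.79 ± 0.14 and 2.21 ± 0.27, and that of Mir124-2hg to Gm27032 was 1.56 ± 0.20 and 1.45 ± 0.44. The ratios were chosen with the values of these genes known and are given without a test.

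Of the 3 miR-9 hosts none was called. Gm3764, C130071C03Rik and Mir9-3hg had log2 fold changes of -0.06, 0.03 and -0.07, with SE of 0.09, 0.08 and 0.09. The log2 ratios between them differed by -0.10 to 0.11 between groups, in each case less than the SD of that ratio in either group. C78859, the miR-138 host on chromosome 8, had 0.05 (SE 0.15).

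**Figure D4:**
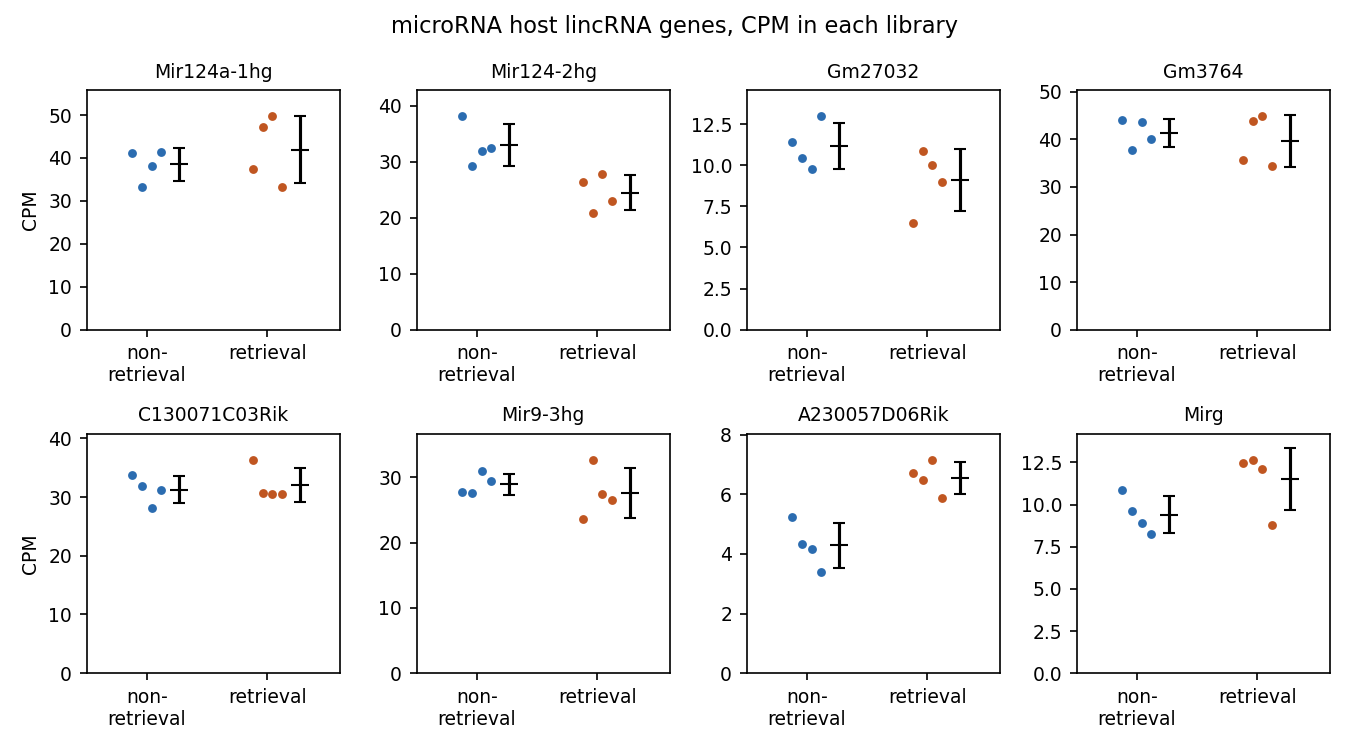
CPM of 8 lincRNA genes in each library (points), with the mean and SD of each group (bars, n = 4). All are microRNA hosts except Gm27032, which shares only 3 bases with the microRNA gene Mir124a-3. The groups are apart for Mir124-2hg, lower in retrieval, and for A230057D06Rik, higher in retrieval, and overlap for the other 6.

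A further group was formed by position, after the values had been seen, and is described without a test. In 17 genes the start lay within 1 kb of the start of the nearest protein-coding gene, on the other strand and with no overlap of the gene bodies, an arrangement called head to head. Of these 15 had a log2 fold change below 0, with a median of -0.17, and 1, Gm43672, was called lower. Of the other 66 genes 32 were below 0, with a median of 0.00. The protein-coding partners were above 0 in 12 of 17 pairs, with a median of 0.03. Both genes had the same sign in 7 of the 17 pairs.

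Among the pairs, Gm17586 had -0.28 (SE 0.14) beside Mafg, a small Maf transcription factor, at 0.25 (SE 0.07, edgeR adjusted p = 0.0401), the only partner called. 5031425E22Rik had -0.22 (SE 0.11) beside Kmt2e at 0.22 (SE 0.08). Fam120aos had -0.18 (SE 0.09) beside Fam120a at 0.16 (SE 0.06). 9330104G04Rik, beside the Wnt regulator Dact3 (0.07, SE 0.10), had -0.31 (SE 0.12). In other pairs both values were below 0, as for Gm15631 at -0.30 (SE 0.11) beside the adhesion molecule gene Cntn4 at -0.08 (SE 0.09) and 3300002P13Rik at -0.10 (SE 0.08) beside Cacng6 at -0.52 (SE 0.28). Values above 0 were those of C030037D09Rik, at 0.04, and 2810032G03Rik, at 0.00.

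LincRNA genes in the same position outside the set lay mostly below 0, as did other lincRNA genes outside the set. Of 65 tested head-to-head autosomal lincRNA genes below the count minimum 44 were below 0, with a median of -0.16, against 241 of 400 others, with a median of -0.09. A further 68 tested autosomal genes were taken by the annotation bidirectional promoter lncRNA, without a check of their position. Of these 54 were below 0, with a median of -0.22 and 5 called lower. Over all genes tested, 52.2% were below 0 and 0.902% were called lower. The head-to-head genes of the set were shorter, at a median of 1997 bases against 4122 for the other 66. With an offset for gene length 15 of 17 were below 0, with the myelin covariate 12 of 17, and with 1 library left out 14 to 16 of 17. For the other 66 genes these counts were 32, 29 and 29 to 42.

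**Figure D5:**
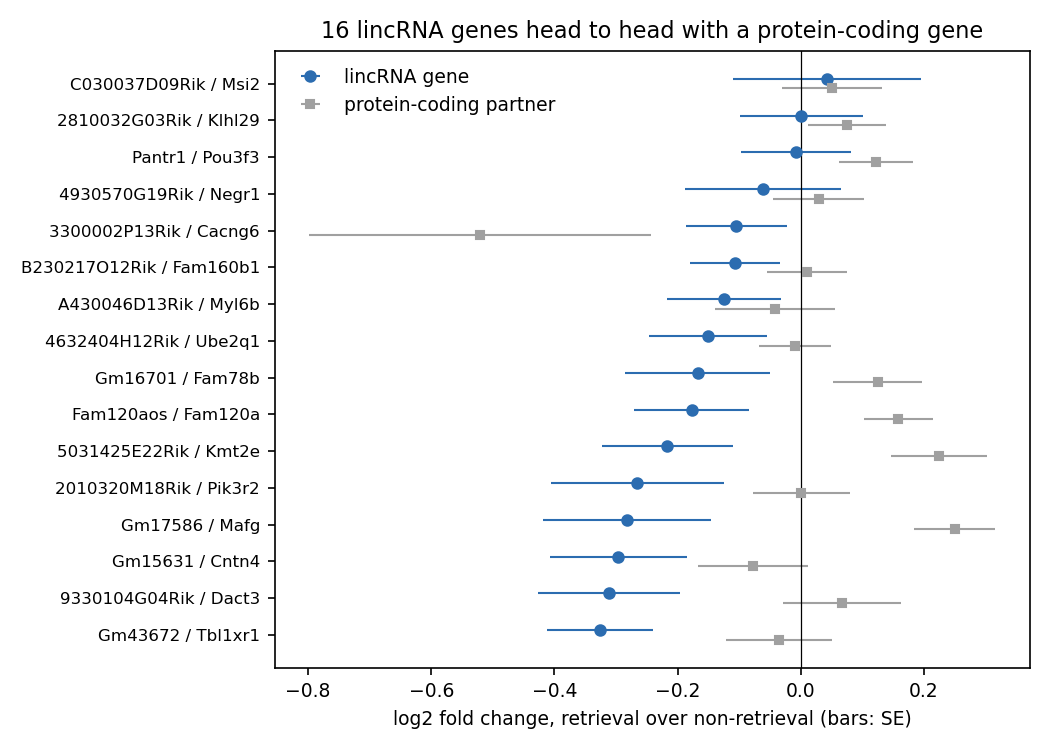
log2 fold change with SE for 16 head-to-head lincRNA genes (circles) and their protein-coding partners (squares), ordered by the lincRNA value. Most of the lincRNA genes lie below 0, down to Gm43672 at -0.33, and most partners lie above it; 1 of the 17 pairs is not drawn.

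RefSeq windows of 300 bases (GRCm38.p6) were matched for 45 of the 83 genes, in 52 windows. The 13 windows of head-to-head genes, which cover 12 of the 17, had a median GC content of 74.7% (range 46.3% to 86.7%). The 39 other windows had a median of 51.7% (range 30.7% to 84.0%), and all 32851 windows 52.7%. The promoter of Fam120aos (chr13:48967862-48968161, plus strand) and that of C030037D09Rik (chr11:88718393-88718692, plus strand) are shown as examples of such GC-rich windows, chosen after the values were seen. Capitals mark a match to the EGR motif GCGNGGGCG in the former and to TGACGTCA in the latter, on either strand.
Fam120aos promoter: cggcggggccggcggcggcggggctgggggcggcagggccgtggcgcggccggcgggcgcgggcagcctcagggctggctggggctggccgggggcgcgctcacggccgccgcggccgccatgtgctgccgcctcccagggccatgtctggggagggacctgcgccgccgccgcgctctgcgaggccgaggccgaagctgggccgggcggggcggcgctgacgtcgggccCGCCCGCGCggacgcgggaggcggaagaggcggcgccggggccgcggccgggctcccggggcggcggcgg
C030037D09Rik promoter: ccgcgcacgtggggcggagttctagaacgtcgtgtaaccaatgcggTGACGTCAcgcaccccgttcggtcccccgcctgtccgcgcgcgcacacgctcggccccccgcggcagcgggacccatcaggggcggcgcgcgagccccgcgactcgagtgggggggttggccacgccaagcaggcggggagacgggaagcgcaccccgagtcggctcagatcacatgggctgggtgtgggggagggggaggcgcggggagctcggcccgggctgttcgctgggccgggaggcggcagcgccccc
Over all 52 windows the EGR motif was found in 5, or 9.62% (5.55% of all windows), and the cyclic AMP response element TGACGTCA in 5, or 9.62% (1.79% of all windows). AP-1 was found in 2 windows, or 3.85% (7.81% of all windows), NR4A in 1, or 1.92% (4.72%), the CArG box in 1, or 1.92% (1.63%), and the glucocorticoid response element in none. The windows with TGACGTCA were those of Meg3, Gm3764, Mir9-3hg, C030037D09Rik and 4930447M23Rik, none of which was called. A match is a description of the letters and not of a bound site.

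Neighbouring genes were also set beside the lincRNA genes. The nearest protein-coding gene was tested for 73 of them, and 39 pairs had the same sign. The Pearson correlation of the log2 fold changes was 0.23 over these pairs and -0.08 over the 17 head-to-head pairs, given without a test. The neighbours were 71 distinct genes, and 4 neighbours were called higher and 1 lower. In either direction, 4.57% of all genes tested and 5.82% of protein-coding genes with the count minimum were called. The neighbours did not have to meet that minimum. None of the 83 genes had 1 of 30 listed activity-regulated genes, such as Fos, Arc or Npas4, as its nearest protein-coding gene. The list is short and no background share was computed, so this is a description of position only. In 17 genes the start lay within 5 kb downstream of a protein-coding gene on the same strand. Of these 13 had a log2 fold change above 0, and the median of the 17 was 0.05. The upstream gene was tested in 16 pairs, of which 7 had the same sign. The Pearson correlation over these 16 pairs was 0.61, also given without a test. Neat1 had 0.34 behind Frmd8 at 0.29, and Gm17354 had 0.08 behind Zfyve9 at -0.06. Gm38910 had -0.21 behind Mansc1 at -0.46, which was called lower (edgeR adjusted p = 0.0092). Both values were the lowest of their side over these 16 pairs, and the correlation without this pair was not computed.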

How the data were processed

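The deposited table holds raw read counts per gene, not normalized, with the gene length, for 8 libraries. For the deposited counts, the submitters' processing notes list the build GRCm38 with HISAT2 2.0.5 and featureCounts 1.5.0-p3. The strand setting and annotation release are not stated in the labels. Counts were filtered with filterByExpr, scaled with TMM factors and tested with edgeR 4.0.16 (R 4.3.3; quasi-likelihood F test, two-sided) over 16745 genes. SE was derived from the fold change and F statistic. CPM and RPKM used the TMM library sizes. Alternatives used DESeq2 1.42.0, limma 3.58.1 and other settings. On simulated counts of 16577 genes, the test recovered 80% of changes of 0.5 on the log2 scale. These counts were drawn independently for each gene and library, so 80% is not the power for the 83 genes. GENCODE M21 matched all 83 genes, 82 with identical coordinates.

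Named genes were the 15 highest per length, the called genes and those with the next smallest p up to 6 in each direction, members of the role lists, and those at the count threshold. Other genes named were chosen after their values were seen. The members and lists were chosen with earlier results of these data known. Of the head-to-head pairs, 1 is not reported here.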

Additional observations from a re-analysis of the deposited data

Results flagged for a closer look

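Among 34 named genes, each group of 4 libraries was searched for 1 library far from the other 3 by Dixon's criterion, which chance meets in about 1 in 20 groups, and 4 of 68 groups met it. 2900097C17Rik had 1895 CPM in non-retrieval library 3, against 1559 to 1616 in the others. Miat had 131.7 CPM in non-retrieval library 2, against 142.3 to 144.2. Mirg had 8.764 CPM in retrieval library 4, against 12.14 to 12.67. Snhg20 had 7.782 CPM in non-retrieval library 1, against 9.722 to 9.944.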

How the results depend on the processing

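Against 1 gene called higher and 2 lower, the counts were 5 higher and 1 lower without a filter on low counts, 3 higher with DESeq2 and with limma-voom (2 and 3 lower), 0 and 0 with the myelin covariate, and 3 higher at an adjusted p under 0.1. They were 1 lower with the striatal covariate and with the gene length offset, 0 higher at a minimum of 200 reads, and 0 higher and 1 lower among genes overlapping no other gene. Leaving out 1 library gave 0 to 4 higher and 0 to 3 lower; both were 0 without non-retrieval library 3 or 4. The sign changed in 24 of 578 refits of named genes, never in a called one, most often for Pantr1; 22 of 34 named genes kept theirs throughout. Same-numbered libraries deviated together with correlations of 0.57, 0.19, 0.050 and 0.29, and 3 of 4 correlated best with their own number, a hint from the data. No label ties the numbers and 1 correlation was under 0.1, so the block was kept as an alternative. With the replicate block 5 genes were higher, Malat1 among them (adjusted p = 4.28e-05), and 5 lower, and 1791 genes in all were called instead of 766. Over all genes the split of 615 higher and 151 lower became 464 and 193 with upper-quartile factors, 465 and 211 with the length offset. All-gene calls were 1139 without a filter, 1619 with limma-voom and 120 with the myelin covariate, and 330 to 1360 when 1 library was left out. The 3 called genes kept their direction in all 17 alternative fits, and A230057D06Rik was called in 13, Mir124-2hg in 11 and Gm43672 in 6. The causes were not tested, and the myelin covariate cannot be separated from retrieval.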
